A study of Drosophila melanogaster with 6 samples.

Results

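The nuclear tRNAs Tyr-GUA, His-GUG, Asn-GUU and Asp-GUC are the cytosolic tRNAs whose anticodon has the form GUN and whose first anticodon base can be exchanged for queuosine. They were selected by anticodon and genomic origin. They comprise 7 of the 84 nuclear isodecoders in the table, which lists 106 tRNAs with the 22 mitochondrial ones. An isodecoder is a tRNA that shares its anticodon with others but differs from them in the rest of its sequence. The 7 are Tyr-GUA-1-X, Tyr-GUA-2-1, His-GUG-1-X, Asn-GUU-1-X, Asp-GUC-1-X, Asp-GUC-2-1 and Asp-GUC-3-1. An X stands for several genes that cannot be told apart by their mature sequence, and the deposited names write T for U.

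Queuosine is a modified guanosine. Animals do not make its base, queuine, and obtain it from food and gut microbes. The enzyme tRNA-guanine transglycosylase then inserts it in place of the guanine that pairs with the last base of the codon. In vertebrates the queuosine of tRNA Tyr and tRNA Asp also receives a sugar. Each of the 4 tRNAs is the only cytosolic reader of its amino acid, whose 2 codons end in C or U, so that no other anticodon can stand in for it. The queuosine content itself was not measured. The values are normalized read counts, taken here as amounts of tRNA, and whether reads of different tRNAs are recovered equally well was not tested.

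Total RNA of whole brains of L3 Drosophila melanogaster larvae, raised at 25 °C per the labels, was sequenced by hydro-tRNAseq, in which tRNAs are cut into short fragments by mild hydrolysis before library preparation. The 3 neuroblast-biased samples (insc-Gal4>UAS-aPKC_caax) came from brains in which insc-Gal4 drives a membrane-tethered aPKC, so that neuroblasts, the neural stem cells, divide symmetrically and accumulate. The 3 neuron-biased samples came from wildtype Oregon R brains. As in the paper, they are called neuroblasts and neurons, although both are whole brains that also hold other cells, and the paper gives differing larval ages in hours. No transcript in the table marks a cell type, so these labels could not be checked against markers. In whole brains, a different mix of cell types and a different relative level of a tRNA within a cell type cannot be told apart.

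Every level below is the mean of the TMM-normalized, batch-corrected read counts of 1 group, as deposited. No value per sample entered, so no level or difference carries an error, and no test between neuroblasts and neurons was run here. Whether a difference exceeds the spread between the 3 replicates of a group cannot be read from these means, and the deposited results of the study's own replicate-based test were not used. Summed over all nuclear tRNAs, the level came to 13449691 TMM for neuroblasts and 16544453 TMM for neurons. The median log2 ratio of the nuclear isodecoders, neuroblast over neuron, was -0.27. Values relative to this median are given beside those as deposited, because they move every log2 ratio up by 0.27.

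Asp-GUC, His-GUG and Asn-GUU were among the most abundant nuclear tRNAs, and Tyr-GUA was the least abundant of the 4. The 45 anticodon groups used here keep iMet-CAU and Met-CAU apart although they share an anticodon, and the paper's count of groups differs. Summed over isodecoders, Asp-GUC had 1149226 TMM in neuroblasts and 1513453 TMM in neurons, the highest of all 45 anticodon groups in each. The lead in neurons was narrow, with Gly-GCC at 1511417 TMM. His-GUG followed with 907613 TMM in neuroblasts, the second of the 45, and 1011253 TMM in neurons, the fourth. Asn-GUU stood at 876721 TMM in neuroblasts and 833698 TMM in neurons, at ranks 3 and 6. Tyr-GUA had only 249409 TMM in neuroblasts, rank 17, and 540226 TMM in neurons, rank 10. His-GUG and Asn-GUU lay close together in neuroblasts, with Asn-GUU at 0.966 times the level of His-GUG, against 0.824 times in neurons. Whether these neighbours differ beyond their replicate spread cannot be read from the means.

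The order of Asp-GUC depended on how isodecoders are combined. Averaged over its 3 isodecoders, as the study does for anticodon groups, Asp-GUC had 383075 TMM in neuroblasts and 504484 TMM in neurons. This put it at rank 3 of the 4 in each, behind His-GUG and Asn-GUU. Among all 45 anticodon groups, Asp-GUC then ranked 8 in neuroblasts and 6 in neurons, and Tyr-GUA ranked 23 and 14. The log2 ratio of Asp-GUC is the same either way.

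**Figure D1:**
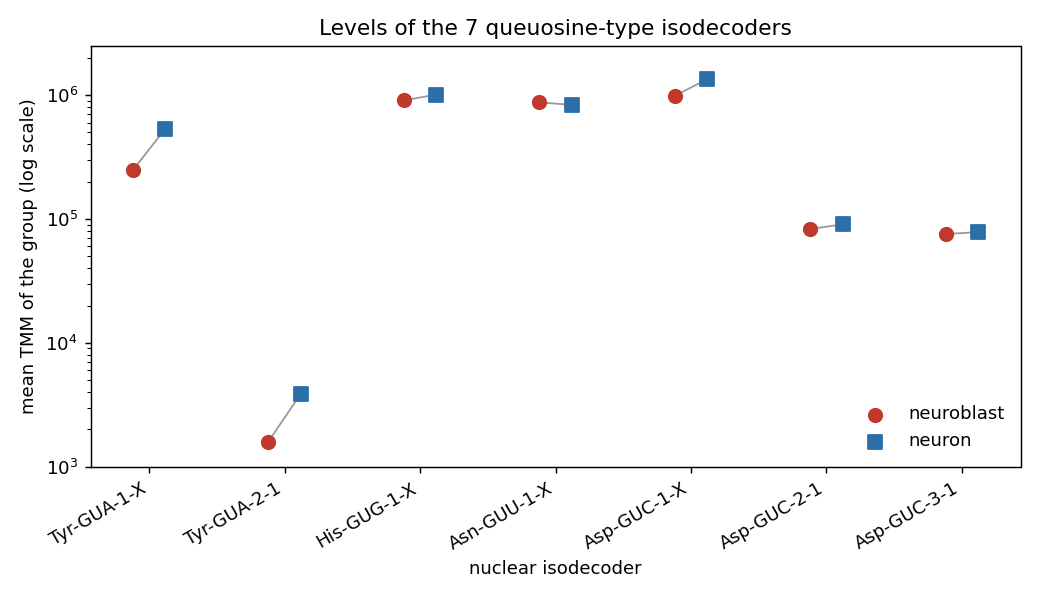
Mean TMM (log scale) of each of the 7 isodecoders in neuroblasts (circles) and neurons (squares), 1 deposited mean per group and no error. Both Tyr-GUA isodecoders sit well below their neuron values, while the other 5 lie closer to theirs.

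Together the 4 anticodons held 23.7% of the summed nuclear TMM in neuroblasts and 23.6% in neurons, from 8.33% of the nuclear isodecoders and 13.4% of the nuclear tRNA genes. The total share was thus nearly the same, but its make-up was not. Tyr-GUA made up 7.84% of the 4-anticodon total in neuroblasts and 13.9% in neurons. Asn-GUU made up 27.5% in neuroblasts and 21.4% in neurons, and His-GUG 28.5% and 25.9%. Asp-GUC contributed 36.1% in neuroblasts and 38.8% in neurons. As a share of all nuclear tRNA, Tyr-GUA had 1.85% in neuroblasts and 3.27% in neurons, a difference of -1.41 percentage points, and Asn-GUU had 6.52% and 5.04%, a difference of 1.48 percentage points. These 2 differences are of nearly equal size and opposite sign. Shares do not depend on how the groups are scaled to each other. Without Tyr-GUA, the other 3 anticodons held 21.8% of the nuclear pool in neuroblasts and 20.3% in neurons.

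**Figure D2:**
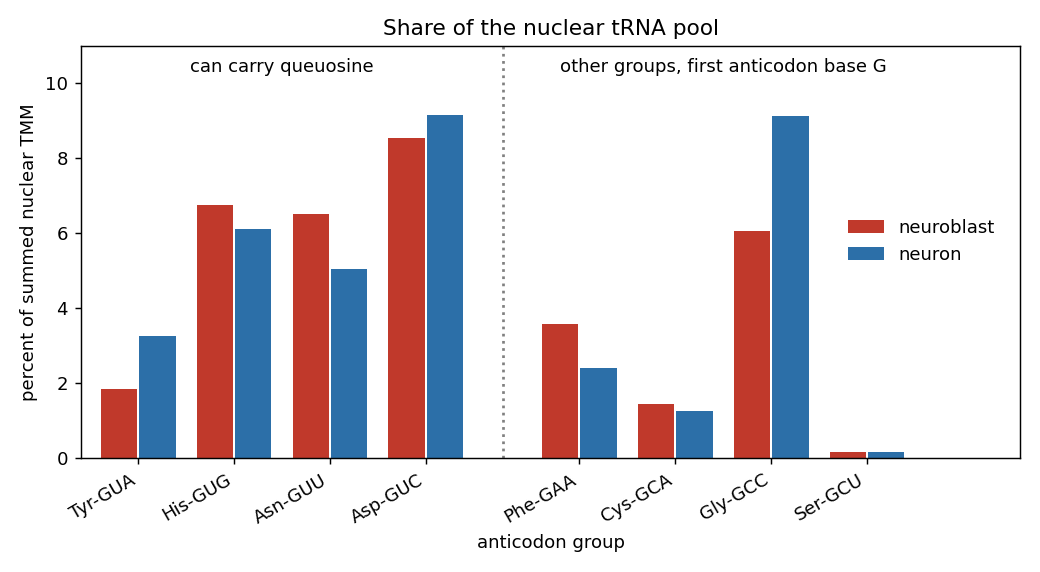
Percentage of the summed nuclear TMM held by each anticodon group in neuroblasts (left bar) and neurons (right bar), 1 deposited mean per group and no error. Tyr-GUA has the smaller share in neuroblasts, 1.85% against 3.27% in neurons, and Asn-GUU the larger, 6.52% against 5.04%.

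Tyr-GUA, which brings tyrosine to UAC and UAU codons, had the lowest log2 ratio of the 4. Its major isodecoder Tyr-GUA-1-X had 247821 TMM in neuroblasts and 536351 TMM in neurons, a log2 ratio of -1.11, or -0.85 relative to the nuclear median. Tyr-GUA-2-1, a rare isodecoder of a single gene, had 1588 TMM in neuroblasts and 3875 TMM in neurons, a log2 ratio of -1.29, or -1.02 relative to the median. Counted from the lowest ratio, Tyr-GUA-1-X ranked 6 and Tyr-GUA-2-1 ranked 3 of the 84 nuclear isodecoders. Both Tyr isodecoders were thus lower in neuroblasts by similar factors. The neuron level was 2.16 times the neuroblast level for Tyr-GUA-1-X and 2.44 times for Tyr-GUA-2-1. The rare isodecoder lay under 5000 TMM in both groups. Reads that mapped to several tRNAs were divided among them, so the 2 ratios need not be independent. Tyr-GUA-1-X made up 99.4% of the Tyr-GUA total in neuroblasts and 99.3% in neurons, so that the rare isodecoder hardly entered the log2 ratio of the sum, which was -1.12. Among the 84 nuclear isodecoders, Tyr-GUA-1-X ranked 15 by level in neuroblasts and 8 in neurons.

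Asp-GUC, the aspartate tRNA and a known substrate of the methyltransferase Dnmt2, had a log2 ratio of -0.40, or -0.13 relative to the nuclear median. Its 3 isodecoders did not share this value alike. Asp-GUC-1-X had 990419 TMM in neuroblasts and 1344752 TMM in neurons, a log2 ratio of -0.44. Asp-GUC-2-1 had 83171 TMM in neuroblasts and 90345 TMM in neurons, a log2 ratio of -0.12 that turns to 0.15 relative to the median. Asp-GUC-3-1 had 75636 TMM in neuroblasts and 78356 TMM in neurons, a log2 ratio of -0.05 that turns to 0.22. Only Asp-GUC-1-X of the 3 kept its direction on both scales, at -0.17 relative to the median. On the deposited scale, Asp-GUC-1-X accounted for 97.3% of the difference in the Asp-GUC sum, a share that depends on the scaling. The minor isodecoders together made up 13.8% of Asp-GUC in neuroblasts and 11.1% in neurons. The level of Asp-GUC-1-X was 11.9 times that of Asp-GUC-2-1 in neuroblasts and 14.9 times in neurons. Reads shared by near-identical isodecoders were split between them in counting. The make-up of Tyr-GUA and Asp-GUC and the log2 ratios of their isodecoders carry that uncertainty.

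His-GUG and Asn-GUU each consist of a single isodecoder. His-GUG-1-X, a tRNA that receives an additional guanosine at its 5′ end after transcription, had 907613 TMM in neuroblasts and 1011253 TMM in neurons, a log2 ratio of -0.16 that turns to 0.11 relative to the nuclear median. Asn-GUU-1-X, the asparagine tRNA, had 876721 TMM in neuroblasts and 833698 TMM in neurons, a log2 ratio of 0.07, or 0.34 relative to the median. It was the only one of the 7 with a higher mean in neuroblasts on the deposited scale. As deposited, 6 of the 7 isodecoders were lower in neuroblasts, beside 67.9% of all nuclear isodecoders, and relative to the median 3 of the 7 were lower, both Tyr isodecoders and Asp-GUC-1-X, beside 50% of the 84, a share that centring on the median fixes.

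With a log2 ratio of 0.5 as the size of change, both Tyr isodecoders and none of the other 5 were lower in neuroblasts. That is 2 of 7, beside 33.3% of the 84 nuclear isodecoders, and 0 of 7 were higher, beside 8.33%. Relative to the median, the same 2 isodecoders were lower by at least 0.5, beside 14.3% of the 84. Among anticodon groups, 1 of the 4 was lower by at least 0.5, beside 31.1% of all 45. The median log2 ratio of the 7 isodecoders was -0.16, beside -0.27 for all nuclear isodecoders. With 7 isodecoders, none of these shares is a result about the set, and all members past 0.5 belong to 1 anticodon.

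**Figure D3:**
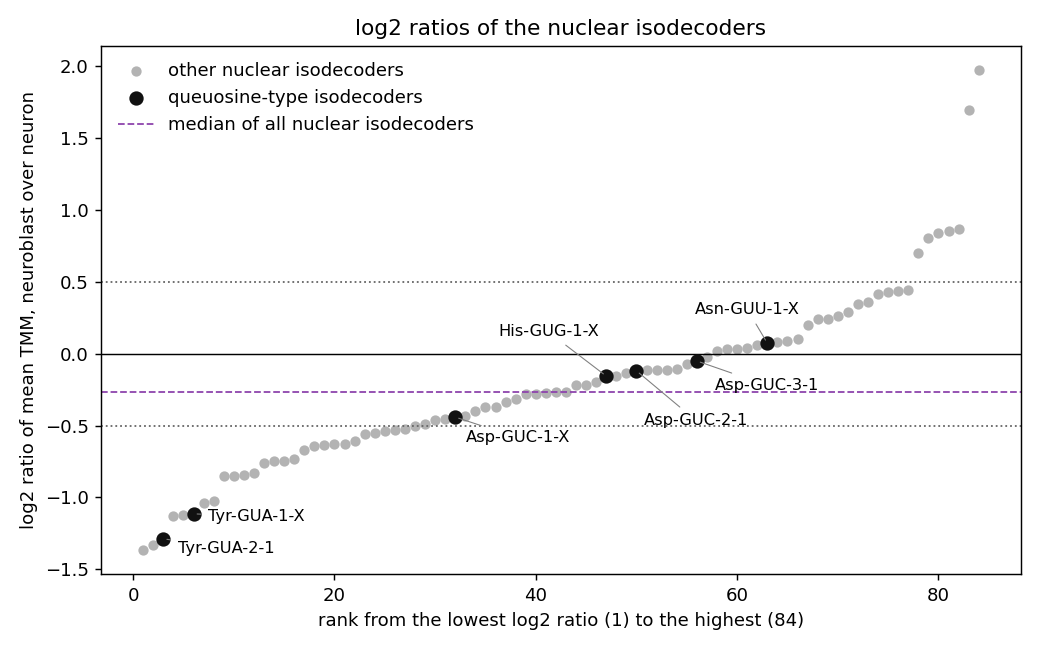
Each point is 1 of the 84 nuclear isodecoders, ordered on the x axis by its log2 ratio of mean TMM, neuroblast over neuron, which is on the y axis; dotted lines mark 0.5 in either direction. The 2 Tyr-GUA isodecoders lie at -1.29 and -1.11 and the other 5 labelled ones between -0.44 and 0.07.

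Ratios between anticodons within a group are free of any scaling between neuroblasts and neurons. The log2 ratios of the 4 anticodons spanned 1.19, from Tyr-GUA at -1.12 to Asn-GUU at 0.07, while all 45 anticodon groups spanned 2.01. Asn-GUU had 3.52 times the level of Tyr-GUA in neuroblasts and 1.54 times in neurons. His-GUG had 3.64 times the level of Tyr-GUA in neuroblasts and 1.87 times in neurons. Asp-GUC exceeded Tyr-GUA by a factor of 4.61 in neuroblasts, against 2.80 in neurons. Among the other 3 anticodons the log2 ratios differed less. Asn-GUU exceeded His-GUG by 0.23, and Asp-GUC stood at -0.24 relative to His-GUG and at -0.47 relative to Asn-GUU. On the deposited scale, the difference of neuroblasts minus neurons was -364227 TMM for Asp-GUC and -290817 TMM for Tyr-GUA, an order that turns round for the shares of the nuclear pool, which differed by -0.603 percentage points for Asp-GUC and by -1.41 for Tyr-GUA. It was 43023 TMM for Asn-GUU and -103640 TMM for His-GUG, whose share differed by 0.636 percentage points in the other direction.

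The nuclear isodecoder outside the set with the log2 ratio closest to that of Tyr-GUA-1-X was Glu-CUC-1-1, at -1.12. For His-GUG-1-X it was Thr-AGU-1-X, at -0.15, for Asp-GUC-1-X it was Arg-UCG-4-1, at -0.43, and for Asn-GUU-1-X it was Cys-GCA-3-1, at 0.08. The likeness is between single ratios of 2 group means and not between patterns over samples.

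The other nuclear tRNAs with G as first anticodon base, Phe-GAA, Cys-GCA, Gly-GCC and Ser-GCU, do not carry queuosine. Their log2 ratios also spread widely. Gly-GCC had 814470 TMM in neuroblasts and 1511417 TMM in neurons, a log2 ratio of -0.89, and Ser-GCU had 22799 TMM and 29192 TMM, a log2 ratio of -0.36. Phe-GAA and Cys-GCA are, like the 4, the only readers of the C- and U-ending codon pair of their amino acid. Phe-GAA had 480521 TMM in neuroblasts and 400503 TMM in neurons, a log2 ratio of 0.26, and Cys-GCA had 196296 TMM and 208693 TMM, a log2 ratio of -0.09 that turns to 0.18 relative to the nuclear median. Tyr-GUA thus had the lowest ratio among these 6 single readers, with Phe-GAA at the other end. The level of Phe-GAA was 1.93 times that of Tyr-GUA in neuroblasts and 0.741 times in neurons, so the order of these 2 aromatic amino acid tRNAs differed between the groups. Of the 9 isodecoders of the 4 comparison anticodons, 2 were lower by at least 0.5, beside 33.3% of the 84 nuclear isodecoders. Another 1 was higher, beside 8.33%. Of these, Ser-GCU-1-1 was barely past the limit, at -0.505. Cys-GCA-2-1, the higher one, had only 2749 TMM in neuroblasts and 1574 TMM in neurons. No test of a difference between the sets was run, and no value here is called particular to tRNAs that can carry queuosine.

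Each of the 84 nuclear isodecoders was matched by name to RefSeq genes of the Release 6 assembly. The 4 anticodons have 39 of 290 nuclear tRNA genes, 10 for Tyr-GUA, 5 for His-GUG, 10 for Asn-GUU and 14 for Asp-GUC. Level and gene number did not run in parallel. His-GUG, with the fewest genes of the 4, had 181523 TMM per gene in neuroblasts and 202251 TMM per gene in neurons, the highest of all 45 anticodon groups in each. Asn-GUU had 87672 TMM per gene in neuroblasts and 83370 TMM per gene in neurons, and Asp-GUC had 82088 and 108104. Tyr-GUA had 24941 TMM per gene in neuroblasts, rank 33 of 45, and 54023 TMM per gene in neurons, rank 22. Over all anticodon groups, the median level was 38527 TMM per gene in neuroblasts and 50063 in neurons. Tyr-GUA was therefore below the median in neuroblasts and above it in neurons. A value per gene is a mean over copies and does not say which copies are transcribed. TMM values are not divided by tRNA length, although the gene spans of His-GUG, Asn-GUU and Asp-GUC are 72 to 74 bp.

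**Figure D4:**
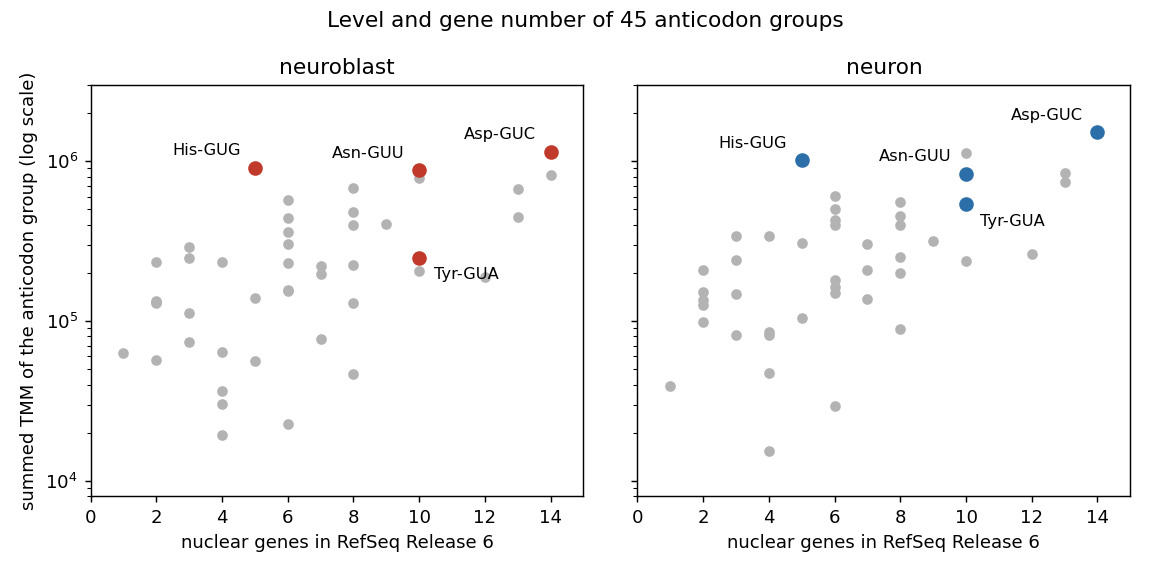
Summed TMM (log scale) against the number of RefSeq genes for 45 anticodon groups in neuroblasts (left) and neurons (right), with the 4 queuosine-type groups in colour. His-GUG has the highest level per gene of the 45 groups in both panels, and Tyr-GUA lies below Asn-GUU at the same number of 10 genes; in neurons Gly-GCC is hidden under Asp-GUC.

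Per gene, the measured levels of the minor isodecoders differed between Asp-GUC and Tyr-GUA. The single genes of Asp-GUC-2-1 and Asp-GUC-3-1 had 83171 and 75636 TMM in neuroblasts, against 82535 TMM per gene for the 12 genes of Asp-GUC-1-X, or 1.01 and 0.916 times as much. In neurons the factors were 0.806 and 0.699. The single gene of Tyr-GUA-2-1 reached only 0.0577 times the value per gene of the 9 genes of Tyr-GUA-1-X in neuroblasts and 0.0650 times in neurons. Tyr-GUA-2-1 was therefore the odd one of the 3 minor isodecoders by these factors. Its level was near the bottom of the table, at rank 83 of 84 in neuroblasts and 77 in neurons. All these factors also depend on how shared reads were split between isodecoders, and that dependence was not tested.

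Most of the genes lie in clusters of the same anticodon, since 32 of the 39 have another gene of their anticodon within 10 kb. This share was not taken over all 290 nuclear tRNA genes, so clustering is not called particular to these 4 anticodons. Tyr-GUA genes are on chromosome arms X, 2L and 3R. On the X, Tyr-GUA-1-1 (21304441 to 21304535) and Tyr-GUA-2-1 (21304713 to 21304820) lie 177 bp apart within the span of Abca3. On 3R, Tyr-GUA-1-6, Tyr-GUA-1-7 and Tyr-GUA-1-8 lie between 8668116 and 8669174, within the spans of p and CG8036, and Tyr-GUA-1-4 and Tyr-GUA-1-5 lie between 8642333 and 8642793, outside any other gene. On 2L, Tyr-GUA-1-2 and Tyr-GUA-1-3 lie between 2459924 and 2462686, and Tyr-GUA-1-9 (7711476 to 7711661), which also carries an undetermined-anticodon name among its synonyms, lies alone within the span of Ntl.

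The Asp-GUC genes are spread over 2L with 10 genes, 3L with 1 and 3R with 3. Asp-GUC-2-1 (2L, 5240766 to 5240837) lies 268 bp from Asp-GUC-1-1 within the span of tkv, and Asp-GUC-3-1 (3R, 24915060 to 24915131) lies 154 bp from Asp-GUC-1-12 within the span of PIG-S. Each of the 3 single-gene isodecoders, Tyr-GUA-2-1 included, thus has a gene of the major isodecoder as its nearest tRNA gene. All 5 His-GUG genes are on 2R, 4 of them between 12333926 and 12336489, and none lies within another gene. Of the 10 Asn-GUU genes, 9 are on 2R, 6 of which lie between 6152603 and 6162592 within the span of EcR, the ecdysone receptor gene. Over all 4 anticodons, 27 of the 39 genes lie within the span of another annotated gene, a share that was also not taken over all nuclear tRNA genes. The annotation used gives spans without exons or strand. All Tyr-GUA genes are longer than those of the other 3 anticodons, at 93 to 186 bp. Genes for tRNA Tyr are known to carry an intron that is removed in splicing.

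The mitochondrial genome encodes its own tRNAs of the same 4 anticodons, which read codons in the organelle and, in mammals, can also carry queuosine. All 4 had a higher mean in neuroblasts. His-GUG, the lowest of them, ranked 19 of the 22 mitochondrial tRNAs from the highest ratio, so at least 19 of the 22 were higher in neuroblasts. Mitochondrial Tyr-GUA (trnY, 1403 to 1468 of the mitochondrial genome) had 23475 TMM in neuroblasts and 7214 TMM in neurons, a log2 ratio of 1.70, the highest of the 22 mitochondrial tRNAs. Mitochondrial Asp-GUC (trnD, 3840 to 3906) had 9936 TMM and 4340 TMM, a log2 ratio of 1.19, and mitochondrial Asn-GUU (trnN, 6126 to 6190) had 52343 TMM and 32638 TMM, a log2 ratio of 0.68. Mitochondrial His-GUG (trnH, 8141 to 8206) had 10029 TMM in neuroblasts and 8997 TMM in neurons, a log2 ratio of 0.16. Of the 4, 3 were higher by at least 0.5, as were 13 of the 22 mitochondrial tRNAs, whose median log2 ratio was 0.79.

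For tyrosine, the mitochondrial tRNA thus had the highest log2 ratio of the 22, while the nuclear one ranked 3 from the lowest of the 45 anticodon groups. The mitochondrial log2 ratio minus the nuclear one was 2.82 for Tyr-GUA, 1.59 for Asp-GUC, 0.61 for Asn-GUU and 0.31 for His-GUG, differences that no scaling of the groups alters. Nuclear Tyr-GUA had 10.6 times the level of mitochondrial Tyr-GUA in neuroblasts and 74.9 times in neurons. For Asp-GUC the factor was 116 in neuroblasts and 349 in neurons, for Asn-GUU it was 16.7 and 25.5, and for His-GUG it was 90.5 and 112. In each of these pairs the nuclear tRNA exceeded its mitochondrial counterpart by a smaller factor in neuroblasts. The medians differ in the same direction, with a log2 ratio of 0.79 for all 22 mitochondrial tRNAs and -0.27 for all nuclear isodecoders. Pairs of other anticodons were not compared, so the smaller factor is not called particular to these anticodons. Like all values here, these factors rest on 1 mean per group, which does not show how far the replicates overlap.

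**Figure D5:**
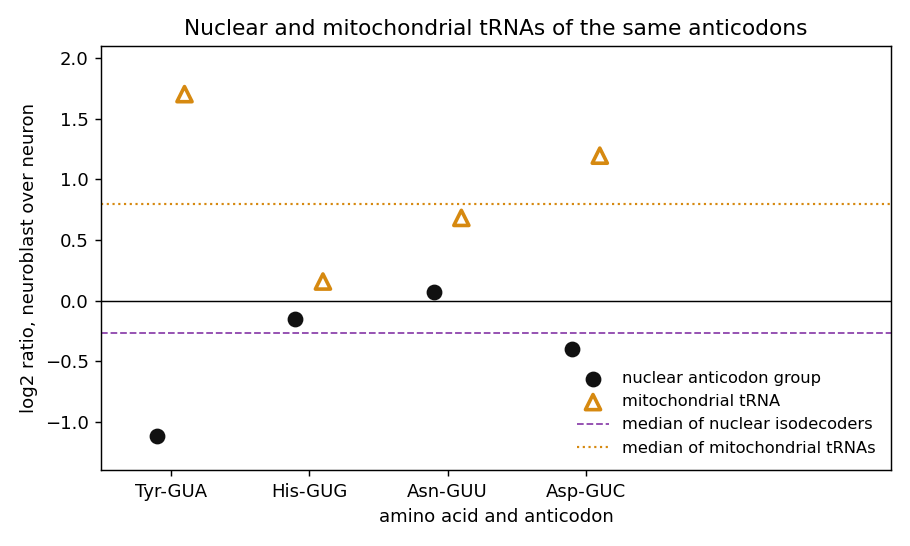
Log2 ratio of neuroblast over neuron (y axis) for the nuclear anticodon group (filled circle) and the mitochondrial tRNA (open triangle) of each of the 4 anticodons, with the nuclear and mitochondrial medians as dashed and dotted lines. The distance between circle and triangle is 2.82 for Tyr-GUA and 0.31 for His-GUG.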

How the data were processed

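Per the paper, adapters were trimmed from the reads, which were mapped by subread-align onto a reference of mature tRNAs with identical copies merged. Alignments of low quality were dropped, and featureCounts divided reads that mapped to several tRNAs among them. NOISeqBio was used for TMM normalization and batch correction, and the batches are not named in the sources used here. The deposited values are a normalized signal, 1 mean TMM per tRNA for neuroblasts and 1 for neurons. Depth per library is unknown, so the precision of a mean is also unknown. The deposited table also holds fold changes, probabilities and q-values of the study's own comparison, which were not used.

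Members were all nuclear isodecoders of Tyr-GUA, His-GUG, Asn-GUU and Asp-GUC. Those named beside them were their mitochondrial counterparts, the other nuclear tRNAs with G as first anticodon base and, for each most abundant member, the isodecoder with the closest log2 ratio. Members and lists were chosen with earlier results of these data known. Log2 ratios of neuroblast over neuron were taken from the means without pseudocount, and anticodon groups were summed over isodecoders. The planned limma test needed values per sample and was not run. Genes and spans came from the RefSeq annotation of Release 6, to which all 84 nuclear isodecoders and the 4 mitochondrial tRNAs were matched by name. Python 3.11.15, pandas 2.3.3, numpy 2.4.6 and matplotlib 3.10.9 were used, and the functions were tested on simulated data. The alternatives were other scalings, adding 100 TMM before the logarithm, leaving out tRNAs under 5000 TMM, other thresholds and other ways to combine isodecoders.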

Additional observations from a re-analysis of the deposited data

How the results depend on the processing

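The direction of Tyr-GUA, Asn-GUU and Asp-GUC and their side of a log2 ratio of 0.5 held under every alternative run, with Tyr-GUA between -1.20 and -0.82, Asn-GUU between 0.07 and 0.37 and Asp-GUC between -0.40 and -0.10. His-GUG, at -0.16 as deposited, reversed to 0.11 relative to the nuclear median and to 0.14 with both groups scaled to the same summed nuclear TMM. A minimum mean TMM of 5000 removed Tyr-GUA-2-1 and left 1 member past 0.5 in place of 2. With mitochondrial tRNA in the pool, the share of the 4 anticodons was 22.4% in neuroblasts and 22.8% in neurons, so that its order between the groups turned round. The average over isodecoders, chosen after seeing the data, put Asp-GUC at rank 3 of 4 in both groups. Leaving out the Tyr-GUA gene with an undetermined name, also chosen after seeing the data, gave 27712 TMM per gene in neuroblasts and 60025 in neurons. No paired analysis was possible because the values are group means, and replicates could not be left out in turn for the same reason. Neither the spread between replicates nor the depth can be read from these means.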

Other observations

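All 10 Tyr-GUA genes have a RefSeq span of more than 90 bp, a limit chosen after the spans were seen. The only other nuclear tRNA genes past it are the 4 of Leu-CAA, at 121 to 127 bp, and the 2 of Ile-UAU, at 98 to 100 bp, while the remaining 274 of the 290 nuclear tRNA genes span 71 to 87 bp. The tRNAs of these 3 anticodons are made from precursors with an intron. Leu-CAA had a summed level of 36395 TMM in neuroblasts and 84982 TMM in neurons, a log2 ratio of -1.22, the lowest of the 45 anticodon groups, and Tyr-GUA had the third lowest, at -1.12. Ile-UAU had 129474 TMM in neuroblasts and 125896 TMM in neurons, a log2 ratio of 0.04. A long gene span therefore went with a low ratio for Tyr-GUA and Leu-CAA but not for Ile-UAU, and with 3 anticodons and no values per sample this was not tested.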
